A study of Mus musculus with 23 samples.

Results

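The 10 genes described here encode growth-factor response transcription factors: the 4 members of the Fos family (Fos, Fosb, Fosl1 and Fosl2), the 3 members of the Jun family (Jun, Junb and Jund), and Egr1, Myc and Atf3. They were chosen by their gene symbols, and all 10 were among the 32793 gene rows and among the 14187 genes that passed the filter on low counts. The cells were C2C12, mouse myoblasts that divide while serum is plentiful and fuse to myotubes once it is lowered. Per the labels, the cells were either control (WT) or Runx1KO, and RNA was taken while they grew with 20% fetal bovine serum (day 0) or after 1, 3 or 6 days in medium with 2% horse serum. The titles give day 6 for the last time point and the series text gives 5 days, and the titles were followed. Poly(A) RNA of 23 libraries was analysed, 3 in each of the 8 groups except WT on day 0, with 2. The cells carry no other allele or agent in the labels. How the Runx1KO cells were made, and whether they are 1 clone, is not given in the sources used here.

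Fos and Jun proteins pair through a leucine zipper to form AP-1, which binds DNA near genes of growth, migration and matrix turnover. Fos proteins need a Jun partner, while Jun proteins can also pair with each other, and cells differ in which family members they hold. Serum switches on Fos, Egr1 and Myc within minutes to hours, so they are called immediate early genes. For Fos and Egr1 this runs through the ERK pathway and serum response factor. In myoblasts, Jun and Myc are known to hold back differentiation, and Runx1 is known to bind together with MyoD and c-Jun.

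Each library held between 22197606 and 23684077 estimated counts. The targeted gene did not follow its label: Runx1 mRNA was higher, not lower, in the KO-labelled libraries on every day (log2 fold change 0.51, 0.35, 0.54 and 1.02 on days 0, 1, 3 and 6; edgeR adjusted p of at most 0.00151). Which part of the gene was altered is not given in the sources used here, so every direction below is that of the libraries as they are labelled. Replicate 2 of the day 1 group labelled KO stood apart, with a median absolute deviation from its group of 0.32 on the log2 scale against 0.192 and 0.186 in its replicates, and day 1 differences of the 10 genes between genotypes, and day 1 list counts that moved, are also given without it. The test used 1 spread per gene over all 8 groups, so this library also enters the standard errors of the other days. Values of those days are not given without it. The muscle markers Myod1 and Des were present in all groups, and the summed level of 10 muscle markers rose from 1425 to 1484 CPM in WT on day 0 to 3468 to 3661 CPM on day 6, and from 2070 to 2166 CPM to 12040 to 14880 CPM in the KO-labelled libraries. CPM values are counts scaled by the TMM-adjusted library size. Of 8 markers of other cell types, Adipoq was at 0 in every library and Ptprc had at most 1 count, and their sum was at most 5.76 CPM in 7 groups and 9.97 to 12.2 CPM in the day 6 group labelled KO, mostly Cd68. The part of muscle content and of these markers in the results below was not tested, and fewer cells of a type cannot be told apart from less RNA per cell.

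On the TPM scale, which corrects for transcript length, the 10 genes differed widely in level. Junb had the highest group means, from 430.5 to 1054 TPM, and Jund had 228 to 403 TPM, the second highest after day 0 and below Fosl1 on day 0 in both genotypes. Fosl1, Myc, Jun, Egr1 and Fosl2 lay between 38.6 and 278 TPM. Atf3 had group means of 6.19 to 13.1 TPM, Fos of 1.53 to 8.72 TPM and Fosb of 0.943 to 2.28 TPM. The genes best known as the fast serum-induced part of AP-1, Fos and Fosb, were thus the least abundant of the 10 in every group.

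In growth medium, 4 of the 10 genes differed between the KO-labelled libraries and WT at an adjusted p under 0.05 (edgeR's quasi-likelihood test, Benjamini-Hochberg adjustment over all 14187 genes): Fosb and Atf3 were higher, and Egr1 and Fos were lower. Over all genes 17.5% were called on that day. On day 1, Fosb, Junb, Egr1 and Jun were lower and none was higher, 4 of 10 against 42.2% of all genes. Without the library that stood apart Junb, Egr1 and Jun were still lower on day 1, Fosb was not called and Myc was higher. On day 3, Atf3 and Fosl2 were lower, 2 of 10 against 43.2% of all genes. On day 6, Junb, Atf3 and Myc were higher and Jun was lower, 4 of 10 against 42.9% of all genes. Leaving out 1 library each, the day 0 count was 1 to 3, with 1 without WT replicate 1 and 2 without WT replicate 2, while it was 9 when only the 2 groups compared were fitted, so the share of the 10 genes is not read against the background. In that fit Egr1 alone was called on day 1 and 6 genes were called on day 3. The number of all genes called moved with it, after the filter was applied again, from 2479 to 3618 on day 0, from 5981 to 3607 on day 1 and from 6127 to 7102 on day 3. The median log2 fold change of the 10 genes was 0.21, -0.23, -0.15 and 0.09 on the 4 days, against -0.0011, 0.03, 0.04 and 0.0037 over all genes. Without the library that stood apart, the day 1 difference of each of the 10 genes moved upward, as given below. The day 1 median thus rests in part on that library, and the median without it was not computed. No gene of the 10 was called in the same direction on more than 2 of the 4 days.

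**Figure D1:**
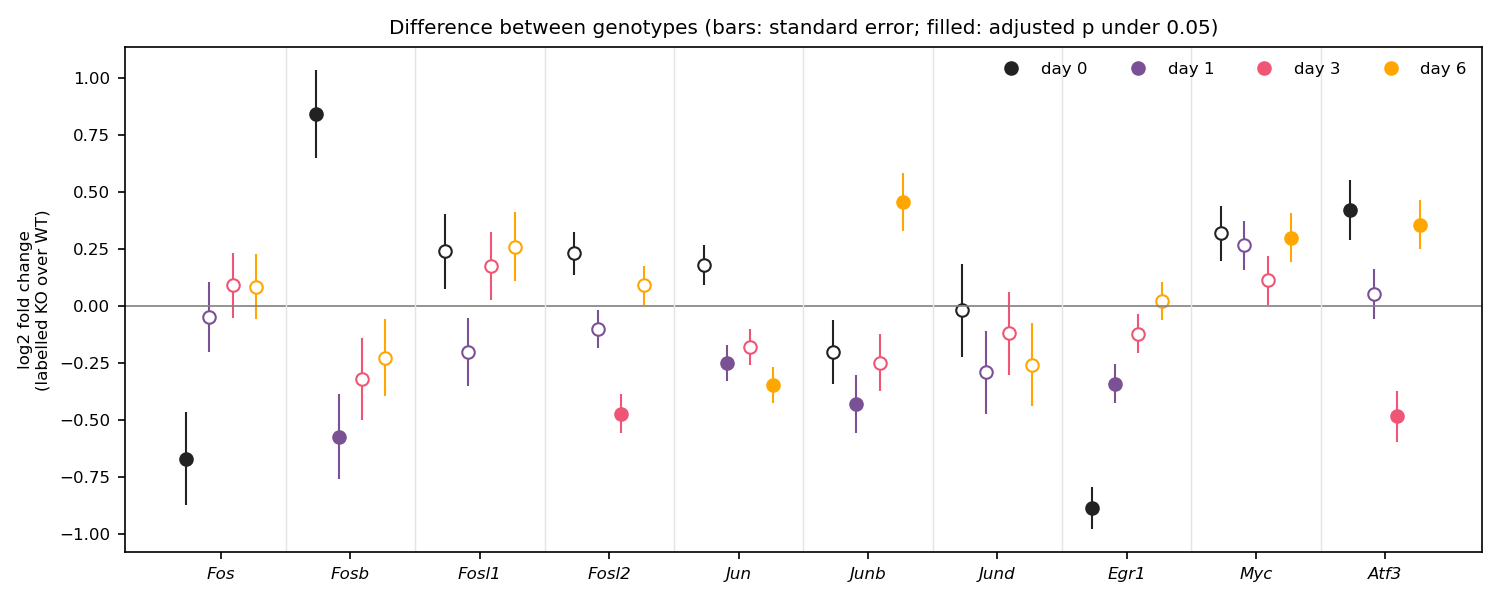
Log2 fold change of each of the 10 genes between the KO-labelled libraries and WT (vertical axis) on days 0, 1, 3 and 6 (colours), with the standard error as a bar and filled points where the edgeR adjusted p was under 0.05. Fosb and Egr1 had the largest differences, 0.84 and -0.89 on day 0, and Atf3 crossed 0 between days, at 0.42, 0.05, -0.48 and 0.36.

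Fos, the founding member of the family and a strong activator when paired with Jun, rose through differentiation in both genotypes. In WT it stood at 2.99 and 3.33 CPM on day 0 and at 6.37, 5.30 and 6.45 CPM on day 1. It reached 8.80, 8.02 and 8.89 CPM on day 3 and 10.2, 10.6 and 8.09 CPM on day 6. KO-labelled values stood at 2.00, 2.29 and 1.67 CPM on day 0, at 5.55, 5.19 and 6.80 CPM on day 1, at 10.1, 9.65 and 7.58 CPM on day 3 and at 10.6, 8.82 and 11.2 CPM on day 6. All 3 day 0 KO-labelled libraries lay below both WT libraries, and from day 1 on the genotypes overlapped. The difference on day 0 was -0.67 ± 0.20 (log2 fold change ± SE; 1.59-fold lower; edgeR adjusted p = 0.0246). It rests on few libraries: the call was lost without either WT library and without replicate 1 or 3 labelled KO, with values of -0.56 to -0.73 in those 4 fits. On days 1, 3 and 6 the differences were -0.05, 0.09 and 0.09, with 95% intervals from -0.36 to 0.27, -0.21 to 0.39 and -0.21 to 0.38. The day 1 value was 0.011 without the library that stood apart.

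Fosb, a close relative of Fos with a similar transactivating domain, differed in the other direction in growth medium. On day 0 it stood at 5.85, 5.42 and 5.51 CPM in the KO-labelled libraries and at 2.82 and 3.43 CPM in WT. These groups did not overlap, and the day 0 KO-labelled libraries were the highest of all 23. The difference was 0.84 ± 0.19 (edgeR adjusted p = 0.00326), and 0.73 with an adjusted p of 0.0745 without WT replicate 1. On day 1 Fosb stood at 2.08, 1.63 and 2.42 CPM in the KO-labelled libraries and at 2.97, 3.52 and 2.61 CPM in WT. All 3 values of the first group were now below those of the second, at -0.57 ± 0.19 (edgeR adjusted p = 0.0156), and the call was lost without replicate 2 labelled KO (-0.45, adjusted p = 0.0719) or WT replicate 2 (-0.46, adjusted p = 0.0826), and when only these groups were fitted (-0.60, adjusted p = 0.0798). On day 3 its levels were 2.94, 2.19 and 2.69 CPM against 2.74, 3.64 and 3.38 CPM, and on day 6 they were 3.57, 3.40 and 4.40 CPM against 4.64, 4.13 and 4.53 CPM. The genotypes overlapped on both days, and the differences of -0.32 and -0.23 were not called.

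The start regions of this pair are shown because Fos and Fosb differed in opposite directions in growth medium. The sequences come from the RefSeq promoter table (GRCm38.p6), written 5′ to 3′ on the gene's own strand. For Fos they are the 150 bases before the transcription start, chr12:85473740-85473889 on the plus strand. For Fosb they are bases -150 to -74, chr7:19310119-19310195 on the minus strand, since the annotated gene also starts further upstream. No exon of any gene in GENCODE lies in either stretch. Capitals mark TGACGT, the core of the cAMP response element, and TATAAA, the TATA box.
Fos: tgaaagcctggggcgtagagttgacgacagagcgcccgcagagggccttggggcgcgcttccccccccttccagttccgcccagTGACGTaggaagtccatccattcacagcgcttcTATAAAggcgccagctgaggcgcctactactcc
Fosb: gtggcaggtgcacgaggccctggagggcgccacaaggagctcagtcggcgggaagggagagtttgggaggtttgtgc
In Fos, TGACGT lay at -66 to -61 and TATAAA at -33 to -28 from the start. Both strands of 250 bases before the start were searched for these 2 motifs and for others. The AP-1 site was searched as TGACTCA, and its Jun-type variant as TGACATCA. The E-box of Myc and Max was searched as CACGTG. The Runx site was searched in the form TGTGGT, and separately in its other form, TGCGGT. The CArG box of serum response factor was searched as well. This gave no other match in Fos and none in Fosb. Bases further upstream were not searched, so the absence of a CArG box holds for this window alone. Of 32851 promoters in the table, 6.47% held TGACGT and 12.4% held TATAAA in the same window. Promoters of 7 of the 10 genes were searched, and none of the 7 had a match to TGTGGT, found in 14% of promoters, or to TGCGGT, found in 5.1%.

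Fosl1 encodes Fra-1, which lacks the transactivating domain of Fos, and on the TPM scale it made up most of the Fos family at every time. In WT it fell from 233 and 254 CPM on day 0 to 146, 162 and 150.4 CPM on day 1, to 96.1, 89.3 and 110.2 CPM on day 3 and to 124, 116 and 85.6 CPM on day 6. In the KO-labelled libraries it fell from 279, 290.2 and 293 CPM to 154, 88.9 and 156 CPM, to 107, 114 and 113 CPM and to 115, 138 and 138 CPM. The day 0 values were above all later ones in both genotypes. Differences between genotypes were 0.24, -0.20, 0.18 and 0.26 on the 4 days and none was called, although the day 0 groups did not overlap. The spread used for Fosl1 includes the day 1 library that stood apart, at 88.9 CPM against 154 and 156 CPM. Its part in the day 0 result was not tested. The day 1 difference was -0.0018 without the library that stood apart, the day 3 difference was 0.069 without WT replicate 2 and 0.26 without WT replicate 3, and the day 6 difference was 0.083 without WT replicate 3. Fosl1 overlaps Ccdc85b on the other strand in GENCODE, and without a statement on strand their reads cannot be told apart.

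Fosl2, which encodes Fra-2, was higher after day 0 in both genotypes, while Fosl1 was lower. In WT it rose from 152 and 136 CPM on day 0 to 266, 265 and 227 CPM on day 1 and to 295, 289.9 and 299.9 CPM on day 3, and it was at 274, 238 and 288 CPM on day 6. KO-labelled libraries stood at 179.7, 174 and 154 CPM on day 0, at 237, 220.1 and 249.7 CPM on day 1, at 216, 218 and 204 CPM on day 3 and at 307, 278 and 267 CPM on day 6. The 2 genotypes overlapped on days 1 and 6 and were apart on day 3, when all WT libraries were higher. The day 3 difference was -0.47 ± 0.085 (edgeR adjusted p = 8.63e-05). The day 1 difference was -0.10, and -0.076 without the library that stood apart. On day 0 the difference of 0.23 was not called (adjusted p = 0.107) although the groups did not overlap.

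The composition of the family differed between days. Fosl1 held 85.2% of the summed Fos family TPM in WT on day 0 and 85.5% in the KO-labelled libraries. By day 3 its share was 53.2% in WT (51.2% to 55.7% over libraries) and 63.2% in the KO-labelled libraries (61.6% to 65%), and that of Fosl2 was 42.4% and 32% by the same measure. On day 6 Fosl1 held 57.2% and 60.4%, and the ranges over libraries overlapped. Fos and Fosb together stayed minor: Fos held at most 4.12% and Fosb at most 0.992% in any group mean. The summed family level on day 3 was 210.4 ± 12.0 TPM (SD, n = 3) in WT, where it overlapped that of day 6 (216 ± 15.6), and 181 ± 6.10 TPM (SD, n = 3) in the KO-labelled libraries, where it overlapped that of day 1 (215.7 ± 38.7), against 288 ± 1.19 (SD, n = 2) and 326 ± 0.694 TPM (SD, n = 3) on day 0.

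**Figure D2:**
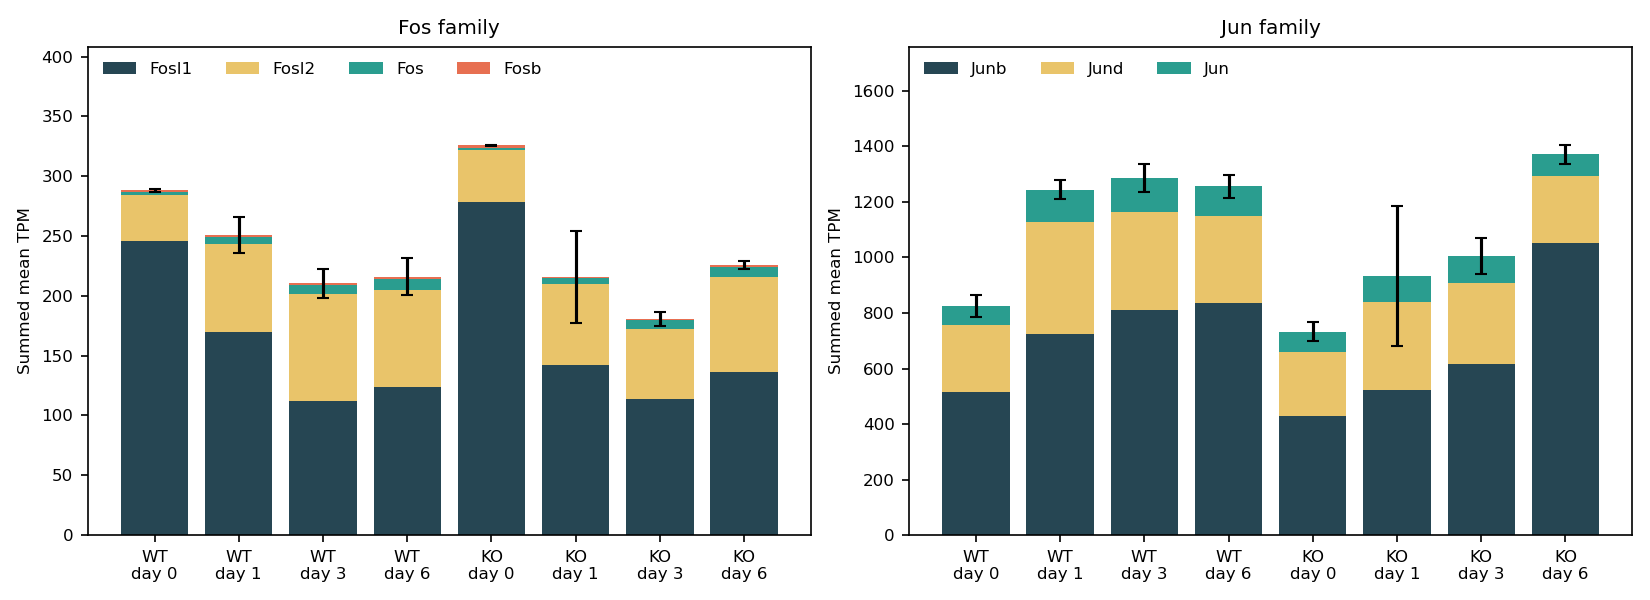
Summed TPM of the Fos family (left) and the Jun family (right) in the 8 groups, stacked by gene as group means, with the SD of the sum over libraries as a bar. Fosl1 fills most of each Fos bar and Fosl2 gains after day 0; Junb fills most of each Jun bar and reaches 1054 TPM in the day 6 group labelled KO, whose day 1 counterpart has a wide bar of 252.9 TPM.

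Jun, which encodes c-Jun, the strongest activator of its family, rose in WT and changed less in the KO-labelled libraries. In WT it stood at 137 and 133 CPM on day 0, at 207, 211 and 199 CPM on day 1, at 211, 210.5 and 209 CPM on day 3 and at 182, 196 and 182 CPM on day 6. The KO-labelled values were 148, 153 and 158 CPM on day 0 and 188, 143 and 188 CPM on day 1. It was at 188, 186 and 182 CPM on day 3 and at 154, 143 and 143 CPM on day 6. The groups did not overlap on any day: the KO-labelled libraries were higher on day 0 and lower on days 1, 3 and 6. The differences were 0.18 (adjusted p = 0.19), -0.25 ± 0.079 (adjusted p = 0.0137), -0.18 (adjusted p = 0.0676) and -0.35 ± 0.079 (adjusted p = 0.00106) by edgeR. The day 1 difference was -0.15 (adjusted p = 0.0352) without the library that stood apart, and the call was lost when only the 2 groups compared were fitted (-0.27, adjusted p = 0.105), and the day 3 difference was called in 7 alternatives, with -0.22 to -0.33.

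Junb, a weaker activator than c-Jun that is known as a factor of muscle fibre size, was lower in the KO-labelled libraries on day 1 and higher on day 6. In WT it stood at 567 and 548 CPM on day 0, at 723, 729 and 688 CPM on day 1, at 823, 736 and 772 CPM on day 3 and at 828, 889.8 and 679 CPM on day 6. KO-labelled values stood at 502, 480.1 and 470.4 CPM on day 0, at 614, 372 and 604 CPM on day 1, at 710, 644 and 609 CPM on day 3 and at 1028, 1095 and 1165 CPM on day 6. The groups did not overlap on any day, with WT higher on days 0, 1 and 3 and lower on day 6. The day 1 difference was -0.43 ± 0.13 (edgeR adjusted p = 0.0086). It was -0.25 (adjusted p = 0.0239) without the library that stood apart, and -0.46 with an adjusted p of 0.0698 when only these groups were fitted. The day 6 difference was 0.46 ± 0.13 (edgeR adjusted p = 0.00523) and was lost without WT replicate 3 (0.32, adjusted p = 0.0531). On day 3 the difference of -0.25 was not called, but it passed in 5 alternatives, with -0.27 to -0.40. On the other strand Junb overlaps Prdx2 and Jun overlaps the antisense gene Junos, as Jund does Gm11175 and Atf3 does Gm24748, so their reads cannot be told apart without a statement on strand.

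The start regions of Jun and Junb are shown because they differed in opposite directions on day 6. They are the 150 bases before the start in the RefSeq table (GRCm38.p6), 5′ to 3′ on the minus strand, chr4:95052223-95052372 for Jun and chr8:84978749-84978898 for Junb, and hold no GENCODE exon. Capitals mark TGACATCA, a variant AP-1 site known from the Jun promoter.
Jun: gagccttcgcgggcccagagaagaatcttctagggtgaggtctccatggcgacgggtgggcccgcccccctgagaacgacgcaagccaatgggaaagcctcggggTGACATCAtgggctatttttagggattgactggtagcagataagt
Junb: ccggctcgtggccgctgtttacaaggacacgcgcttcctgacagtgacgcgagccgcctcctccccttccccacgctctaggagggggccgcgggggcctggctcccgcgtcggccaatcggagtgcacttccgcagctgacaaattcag
In Jun the match lay at -45 to -38. It was found in 2.93% of promoters in the table, and Junb held none of the motifs searched in its 250 bases.

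Jund, a family member known to be abundant in resting cells, was not called between genotypes on any day. In WT it stood at 419 and 429.9 CPM on day 0, at 636, 630.4 and 680.3 CPM on day 1, at 572, 537 and 556 CPM on day 3 and at 513, 521 and 431 CPM on day 6. KO-labelled libraries stood at 443, 412 and 403 CPM on day 0, at 670.4, 271 and 649.9 CPM on day 1, at 513, 511 and 507 CPM on day 3 and at 390.3, 393 and 443 CPM on day 6. The value of 271 CPM belongs to the day 1 library that stood apart. The day 1 difference was -0.29 with all libraries, 0.0035 without it, and -0.49 (called, adjusted p = 0.041) without replicate 1 labelled KO. The 95% intervals of the differences on days 0, 3 and 6 ran from -0.44 to 0.41, from -0.50 to 0.26 and from -0.64 to 0.12. These intervals use the spread shared over all groups, which includes the day 1 library that stood apart. On day 3 the groups did not overlap. Within the Jun family, Junb held 62.6% of the summed TPM in WT on day 0 and 66.5% on day 6, and 58.7% and 76.8% in the KO-labelled libraries. On day 6 the share of Jun was 5.66% in the KO-labelled libraries (5.19% to 6.26% over libraries) and 8.58% in WT (8.02% to 9.57%).

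Egr1, a zinc-finger factor that is one of the fastest serum-induced genes, had the largest difference of the 10 genes in growth medium by size with all libraries. Leaving out 1 library each, its day 0 difference ran from -0.90 to -0.84 and that of Fosb from 0.73 to 0.99, so this order can change. On day 0 Egr1 stood at 86.3, 85.2 and 77.9 CPM in the KO-labelled libraries and at 154 and 154 CPM in WT. The groups were far apart, with a difference of -0.89 ± 0.094 (1.85-fold lower; edgeR adjusted p = 2.18e-07), called in every alternative except the demand for an absolute log2 fold change of at least 1. On day 1 it stood at 119, 94.9 and 122 CPM in the KO-labelled libraries and at 136, 149.5 and 140 CPM in WT. These groups did not overlap either, at -0.34 ± 0.085 (edgeR adjusted p = 0.0025), and at -0.26 (adjusted p = 0.00657) without the library that stood apart. On day 3 its levels were 167, 155 and 150.2 CPM against 179.4, 160.2 and 173 CPM, and on day 6 they were 216, 251 and 241 CPM against 232, 242 and 224 CPM. The genotypes overlapped on both days and the differences were -0.12 and 0.02, with 95% intervals from -0.30 to 0.05 and from -0.15 to 0.20. Nab1 and Nab2, co-repressors that bind Egr proteins, were tested beside it. Neither was called on day 0, Nab1 was higher in the KO-labelled libraries on day 1 (0.33) and day 3 (0.34), and Nab2 was higher on day 6 (0.32). On day 1, 0 of the 2 were higher without the library that stood apart, on the TPM scale and when only these groups were fitted, and 1 was lower in 9 alternatives. The day 3 and day 6 calls were lost on the TPM scale, and the day 6 call also without WT replicate 3.

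Myc, which drives growth and ribosome production, fell on the first day in low serum in both genotypes and stayed below its day 0 level. In WT it stood at 179 and 183 CPM on day 0, at 81.8, 78.6 and 86.1 CPM on day 1, at 101, 97.0 and 105 CPM on day 3 and at 111, 110.4 and 94.1 CPM on day 6. In the KO-labelled libraries it stood at 221, 228 and 228 CPM on day 0, at 113, 72.6 and 111 CPM on day 1, at 113, 107 and 108 CPM on day 3 and at 126, 128 and 134 CPM on day 6. The KO-labelled libraries lay above WT without overlap on days 0, 3 and 6, and on day 1 the library that stood apart fell below all 3 WT values. The difference of 0.32 on day 0 was not called (edgeR adjusted p = 0.0703), with a spread that includes the day 1 library that stood apart. On day 1 it was 0.27 with all libraries (adjusted p = 0.0506) and 0.43 without that library (adjusted p = 1.76e-05). On day 6 it was 0.30 ± 0.11 (edgeR adjusted p = 0.027), and this call was lost on the TPM scale (0.18), with library size as the only scaling (0.23) and without replicate 2 (0.31) or 3 (0.27) labelled KO or WT replicate 3 (0.19).

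Atf3, a stress-induced bZIP factor that pairs with Jun proteins and often represses, changed the direction of its difference with the day. In WT it stood at 6.95 and 7.55 CPM on day 0, at 10.1, 10.4 and 12.5 CPM on day 1, at 13.2, 12.7 and 12.5 CPM on day 3 and at 11.7, 11.9 and 10.8 CPM on day 6. KO-labelled values stood at 9.85, 10.3 and 9.04 CPM on day 0, at 12.5, 10.9 and 10.9 CPM on day 1, at 10.1, 9.83 and 7.49 CPM on day 3 and at 14.65, 14.45 and 14.98 CPM on day 6. The groups were apart on days 0, 3 and 6 and overlapped on day 1, when the difference was 0.05, and 0.064 without the library that stood apart. By edgeR the differences were 0.42 ± 0.13 on day 0 (adjusted p = 0.0268), -0.48 ± 0.11 on day 3 (adjusted p = 0.00118) and 0.36 ± 0.11 on day 6 (adjusted p = 0.0102). The day 0 call was lost with library size as the only scaling (0.36), with no filter (0.42), on the log2(TPM + 1) scale (0.32) and without replicate 2 labelled KO (0.38) or either WT library (0.38 and 0.48). The day 6 call was lost on the TPM scale (0.19 and 0.20) and without WT replicate 3 (0.28). The day 3 call was kept in every alternative except the demand for an absolute log2 fold change of at least 1.

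In the RefSeq table, TGACGT lay at -8 to -3 from the start of Atf3, on the opposite strand, inside an exon of another GENCODE transcript of the gene. Fos and Atf3 were the 2 genes of the 7 searched with TGACGT in 250 bases.

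**Figure D3:**
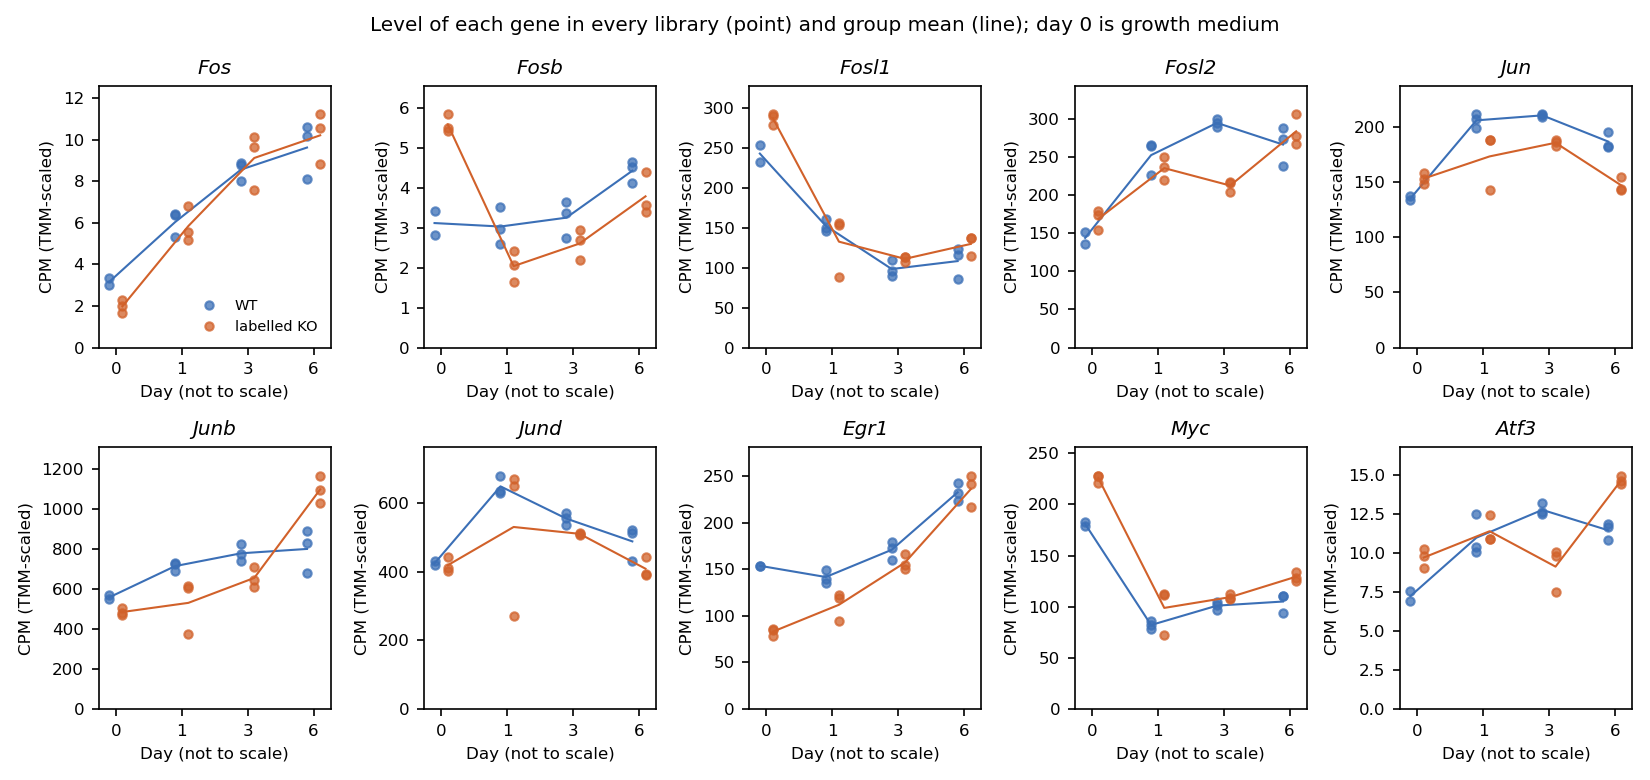
Level of each of the 10 genes in CPM (vertical axes, from 0) in every library, with points for libraries and lines through group means, for WT (blue) and KO-labelled libraries (orange) on days 0, 1, 3 and 6. The day 1 library labelled KO that stood apart is the lowest point of day 1 in Jund (271 CPM), Junb (372 CPM) and Fosl1 (88.9 CPM), and Egr1 starts lower in the KO-labelled libraries and meets WT by day 6.

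Against growth medium, most of the 10 genes changed in both genotypes. In WT, 6 were higher and 2 lower on day 1, when 54.7% of all genes were called, 5 were higher and 2 lower on day 3 (58.2%), and 7 were higher and 2 lower on day 6 (63.6%). In the KO-labelled libraries, 3 were higher and 3 lower on day 1 (52.3%), 5 were higher and 3 lower on day 3 (57.6%), and 5 were higher and 3 lower on day 6 (70%). Counted in either direction these are 8, 7 and 9 of 10 in WT and 6, 8 and 8 of 10 in the KO-labelled libraries, and no difference from the background was tested. In WT the median log2 fold change of the 10 was 0.48, 0.43 and 0.51, and for KO-labelled libraries it was 0.20, 0.28 and 0.28, against 0.02 to 0.05 over all genes. The KO-labelled day 1 values include the library that stood apart, without which Jun, Junb and Jund were also higher. The median without it was not computed.

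Fos rose most. From day 0 its log2 fold change reached 0.93, 1.44 and 1.60 in WT, and 1.56, 2.20 and 2.36 in the KO-labelled libraries (edgeR adjusted p of at most 0.000156). Fosl2 rose in both genotypes, by 0.81, 1.03 and 0.89 in WT and by 0.48, 0.33 and 0.75 in the KO-labelled libraries. Fosl1 and Myc were the 2 genes lower at all 3 times in both genotypes: Fosl1 at -0.67, -1.30 and -1.16 in WT and -1.11, -1.37 and -1.14 in the KO-labelled libraries, and Myc at -1.14, -0.84 and -0.78 in WT and -1.19, -1.04 and -0.80 in the KO-labelled libraries. Egr1 was called in WT on day 6 alone (0.60), and in the KO-labelled libraries on all 3 days (0.43, 0.92 and 1.505). Fosb was called in WT on day 6 alone, higher (0.51), and in the KO-labelled libraries it was lower at all 3 times (-1.46, -1.10 and -0.56). Jun was higher in WT at all 3 times (0.61, 0.64 and 0.47) and in the KO-labelled libraries on day 3 alone (0.28). Junb was higher in WT at all 3 times (0.36, 0.48 and 0.52) and in the KO-labelled libraries on days 3 and 6 (0.43 and 1.18). Atf3 was higher in WT at all 3 times (0.60, 0.82 and 0.66) and in the KO-labelled libraries on day 6 (0.60). Jund was called once, higher in WT on day 1 (0.61). In WT on days 3 and 6 (0.39 and 0.20) and in the KO-labelled libraries on day 3 (0.29) it was not called, although the groups did not overlap. Its shared spread includes the day 1 library that stood apart. The day 1 calls of Junb (0.43 and 0.33) and Jund (0.64 and 0.63) in WT were lost without either of the 2 day 0 libraries, the day 3 call of Junb (0.45) without replicate 2 of them, and the day 6 call of Fosb (0.41) without replicate 1. Without the library that stood apart Jun (0.30), Junb (0.34) and Jund (0.66) were also called in the KO-labelled libraries on day 1.

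Changes between successive later days were also tested. From day 1 to day 3 in WT, Fos (0.50) and Egr1 (0.27) rose and Fosl1 fell (-0.63), 3 of 10 against 19.7% of all genes. From day 3 to day 6 in WT, Egr1 alone of the 10 was called (0.44), with 9.79% of all genes. In the KO-labelled libraries, Fos (0.64) and Egr1 (0.49) rose and Atf3 fell (-0.32) from day 1 to day 3, with 26.7% of all genes called. From day 3 to day 6 in the KO-labelled libraries, Junb (0.74), Atf3 (0.68), Egr1 (0.59), Fosb (0.54) and Fosl2 (0.42) rose and Jun fell (-0.34), 6 of 10 with 41.3% of all genes called. Whether this step differed between genotypes was not tested. Egr1 was the gene called in all 4 of these steps. In WT, the step from day 1 to day 3 lost its call without day 1 replicate 2 or day 3 replicate 1 or 3 for Fos (0.41 to 0.48), and without replicate 1 or 3 of either day for Egr1 (0.23 to 0.26). In the KO-labelled libraries, the fall of Atf3 was lost without day 1 replicate 1 (-0.25) or day 3 replicate 3 (-0.20), and the rise of Fosb without day 3 replicate 2 (0.43) or day 6 replicate 3 (0.42).

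An interaction term compared the change since day 0 between genotypes, as the change in the KO-labelled libraries minus the change in WT. All 3 interaction tests share the day 0 libraries, so a difference on day 0 enters each of them. At day 1 the interaction was called for Egr1 (0.55), Fosb (-1.42) and Jun (-0.43), 3 of 10 with 3.95% of all genes called. At day 3 it was called for Egr1 (0.76), Atf3 (-0.91), Fosb (-1.16) and Fosl2 (-0.70), 4 of 10 with 10.7% of all genes called. At day 6 it was called for Egr1 (0.91), Fos (0.76), Junb (0.66), Fosb (-1.07) and Jun (-0.53), 5 of 10 with 13% of all genes called. Egr1 and Fosb were called at all 3 times. The change of Egr1 was -0.12, 0.15 and 0.60 in WT against 0.43, 0.92 and 1.505 in the KO-labelled libraries, and that of Fosb was -0.04, 0.06 and 0.51 against -1.46, -1.10 and -0.56. Fosl1, Jund and Myc were called at none. The day 1 interaction of Jun and the day 6 interaction of Fos were lost with the replicate block (-0.43, adjusted p = 0.0616, and 0.75, adjusted p = 0.0647) and in 7 and 8 of 11 fits that left out 1 library. The day 1 interaction of Egr1 was lost without either WT day 0 library (0.52 and 0.55), without WT day 1 replicate 1 (0.48) and with only the groups compared (0.52). The day 6 interaction of Junb was lost without either WT day 0 library (0.59 and 0.69), without replicate 3 labelled KO (0.61) and without WT replicate 3 (0.50). At day 3 the interactions of Fos (0.76, adjusted p = 0.0528) and Jun (-0.36, adjusted p = 0.0535) lay just outside the threshold and passed in 4 and 9 alternatives.

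The groups can be ordered by level for each gene. For Egr1 the order of mean CPM was day 6 labelled KO (236) and day 6 WT (233), which overlapped each other, then day 3 WT, day 3 labelled KO and day 0 WT, which overlapped in turn and lay apart from the groups above and below, then day 1 WT (142), day 1 labelled KO (112) and day 0 labelled KO (83.2), each apart from the next. For Fos the day 6 and day 3 groups of both genotypes overlapped at the top (8.57 to 10.2 CPM), followed by both day 1 groups, day 0 WT (3.16) and day 0 labelled KO (1.98). For Fosb the day 0 group labelled KO (5.59) was apart from the next, day 6 WT (4.43), and all further neighbours overlapped down to day 1 labelled KO (2.04). For Myc the order began with day 0 labelled KO (226), day 0 WT (181) and day 6 labelled KO (129), each apart from the next, and all remaining neighbours overlapped. The highest group mean exceeded the lowest 5.15-fold for Fos, 2.92-fold for Fosl1, 2.84-fold for Egr1, 2.75-fold for Myc, 2.74-fold for Fosb, 2.26-fold for Junb, 2.05-fold for Fosl2, 2.03-fold for Atf3, 1.59-fold for Jund and 1.56-fold for Jun.

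Over the 8 group means, the pairs of the 10 genes with the most similar log2 CPM were Fosl2 and Atf3 (r = 0.902), Jun and Jund (r = 0.898), Junb and Egr1 (r = 0.876), Fos and Fosl2 (r = 0.834) and Fosl1 and Myc (r = 0.824). These are descriptions over 8 points that share libraries and time course. Among all other tested genes with at least 5 CPM in their highest group, leaving out predicted genes named only by a Gm or Rik symbol, Fos was most like Vash1 (r = 0.994), Fosl1 most like Phlda1 (r = 0.988), Fosl2 most like Rbm20 (r = 0.993), Jun most like Phf13 (r = 0.976), Junb most like Pde4dip (r = 0.986) and Jund most like Lypd6 (r = 0.977). Myc was most like Map3k3 (r = 0.993), Atf3 most like Plec (r = 0.982), which encodes the cytoskeletal linker plectin, and Egr1 most like Kcnn3 (r = 0.971). Fosb had the least similar partner, Rbms1 (r = 0.926).

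The pathway around these genes was described by lists chosen with earlier results of these data known. The counts of each list stand against 17.5%, 42.2%, 43.2% and 42.9% of all genes called between genotypes on days 0, 1, 3 and 6. Ranges of these counts are over the alternatives at the same threshold, including each library left out. Of 13 genes that act upstream (serum response factor and its co-factors, Creb1, Atf1 and MAP kinases), 1 was higher and 1 lower in the KO-labelled libraries on day 0, 1 was higher on day 1, 1 was higher and 1 lower on day 3, and 3 were higher and 2 lower on day 6. Atf1, a CREB relative, was higher on days 1, 3 and 6 (0.43, 0.37 and 0.43), and Srf was higher on day 6 (0.36). Without the library that stood apart 4 upstream genes were higher on day 1, and without replicates 1 and 3 labelled KO 3 and 2 were. The day 0 lower count was 0 in each fit that left out 1 library, and the higher count was 0 without replicate 3 labelled KO or either WT library. In the other alternatives the day 0 counts ran from 0 to 3 higher and from 0 to 2 lower. On day 3 Atf1 was the only upstream gene called higher and was lost on the TPM scale, and the lower count ran from 0 to 3, with 0 without replicate 3 labelled KO or WT replicate 1 or 3, and on day 6 the higher count ran from 1 to 3, with 1 without WT replicate 1, and the lower count from 1 to 4, with 1 without replicate 2 labelled KO. Of 10 feedback genes of the ERK pathway, 3 were higher and 2 lower on day 0, 2 and 3 on day 1, 4 and 3 on day 3, and 5 and 3 on day 6. The day 0 higher count was 1 without WT replicate 2, and the lower count was 0 without WT replicate 1. The day 3 higher count was 2 on the TPM scale. Within them the genes went opposite ways: Spry4, an inhibitor of growth-factor signalling, was higher by 0.61, 1.49, 1.88 and 1.64 on the 4 days, while Dusp4, an ERK phosphatase, was lower on all 4 days (-0.37, -0.72, -1.35 and -0.60).

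Of 20 other immediate early genes, 6 were higher and 4 lower on day 0, 4 and 10 on day 1, 3 and 10 on day 3, and 7 and 6 on day 6. The share of all genes called on those days was 17.5%, 42.2%, 43.2% and 42.9%. The day 0 lower count was 2 without WT replicate 1, and the day 3 higher count ran from 0 to 3. The median log2 fold change of the list was -0.07, -0.26, -0.32 and -0.01, against -0.0011, 0.03, 0.04 and 0.0037 over all genes. Ctgf, a matricellular growth factor, was higher in the KO-labelled libraries on day 0 (314 against 52.8 CPM, 2.57), day 1 (2.34), day 3 (0.37) and day 6 (0.52). Nr4a2, a nuclear receptor, was lower on all 4 days (-1.53, -0.96, -0.81 and -1.07). Egr3, a relative of Egr1, was lower on days 0 and 1 (-0.74 and -0.63), as Egr1 was, and higher on day 6 (0.67), when Egr1 was not called. Egr2, another relative, was lower on day 1 (-0.64) and higher on day 6 (0.90). Ier3 was lower on days 1, 3 and 6 (-1.08, -1.20 and -0.37).

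Of 16 genes known as AP-1 targets 13 were tested, and they moved in both directions. In the KO-labelled libraries, 5 were higher and 2 lower on day 0, 5 and 6 on day 1, 5 and 5 on day 3, and 4 and 6 on day 6, with medians of 0.27, -0.02, -0.18 and -0.05. The day 0 higher count was 3 without either WT library, and the day 1 higher count was 3 without replicate 1 labelled KO or any 1 of the 3 WT libraries. Over the alternatives the higher count ran from 3 to 7 on day 0 and from 3 to 5 on day 1, and the lower count ran from 4 to 8 on day 3. Mmp9, a matrix protease, was higher on day 0 (16.5 against 3.36 CPM, 2.30), day 1 (0.83), day 3 (1.22) and day 6 (0.68), and Ccl2, a chemokine, was higher on days 1, 3 and 6 (1.54, 2.04 and 1.96). Spp1, which encodes osteopontin, was lower on days 0, 1 and 6 (-0.91, -0.79 and -0.63), and the growth factor genes Lif (-0.75, -1.56 and -0.37) and Hbegf (-0.38, -1.35 and -0.80) were lower on days 1, 3 and 6. Of 15 other bZIP genes that can pair with Fos or Jun proteins 13 were tested, and 1 was higher and 2 lower on day 0, 2 and 4 on day 1, 2 and 4 on day 3, and 2 and 3 on day 6. Without the library that stood apart 1 was higher and 3 lower on day 1. The higher count was 0 on day 0 without replicate 2 labelled KO or either WT library, 1 on day 3 without WT replicate 2 and 1 on day 6 without WT replicate 3. Over the alternatives the higher count ran from 1 to 3 on days 1, 3 and 6, and the lower count from 1 to 3 on day 0. Maf was lower on all 4 days (-2.66, -1.94, -1.25 and -1.51), with a day 0 level of only 0.183 against 1.21 CPM, Maff was lower on days 1, 3 and 6 (-0.67, -0.93 and -0.47), and Jdp2, a repressor of AP-1, was higher on days 0, 1 and 3 (0.35, 0.43 and 0.56).

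Genes known as Myc targets in growth and ribosome production were mostly lower after day 0, as Myc was. Of 20, all tested, 19 were lower on day 1 and on day 6 than on day 0 in each genotype, with medians of -1.39 and -1.34 in WT and -1.10 and -1.41 in the KO-labelled libraries. Of all genes, 54.7% and 63.6% were called in either direction in WT on these days, and 52.3% and 70% in the KO-labelled libraries. Between genotypes, 3, 14, 15 and 6 of the 20 were higher in the KO-labelled libraries on days 0, 1, 3 and 6 and none was lower, with 17.5%, 42.2%, 43.2% and 42.9% of all genes called in either direction on those days. Their medians were 0.19, 0.56, 0.40 and 0.18, against -0.0011, 0.03, 0.04 and 0.0037 over all genes. On day 1, 15 of 20 were higher without the library that stood apart. Over the alternatives the count ran from 1 to 7, 11 to 15, 9 to 15 and 2 to 6 on the 4 days, with at most 1 gene lower on days 3 and 6. The day 0 count was 1 without replicate 3 labelled KO or either WT library and 6 without replicate 1 labelled KO. The day 6 count was 3 without replicate 1 or 2 labelled KO or WT replicate 1, and 2 without WT replicate 3. Odc1, the first enzyme of polyamine synthesis, was higher on all 4 days (0.47, 1.08, 0.92 and 1.05), and Nop56 and Nop58, nucleolar proteins of ribosome assembly, were higher on day 1 (0.77 and 0.75) and day 3 (0.61 and 0.62). Of 11 genes of the Myc and Max network 10 were tested, with 1 higher and 1 lower on day 0, 1 and 1 on day 1, 3 and 1 on day 3, and 5 and 2 on day 6. The day 6 counts ran from 0 to 5 higher and from 0 to 2 lower: 0 were higher on the TPM scale, 2 without replicate 1 labelled KO or WT replicate 3, and 3 without replicate 2 of either genotype. On day 6, 0 were lower without replicate 2 or 3 labelled KO, and 1 without WT replicate 2. The day 1 lower count ran from 0 to 4, with 0 without the library that stood apart, replicate 1 labelled KO or WT replicate 3 and 3 without replicate 3 labelled KO, and the day 3 lower count ran from 0 to 4. On day 3 it was 0 without replicate 2 or 3 labelled KO or WT replicate 1, and 2 without WT replicate 2. The day 0 lower count was 0 without replicate 3 labelled KO or WT replicate 1. Mycl, a Myc paralogue, was higher on days 0, 3 and 6 (0.72, 1.09 and 0.41), and it rose after day 0 while Myc fell (2.78 in WT and 1.85 in the KO-labelled libraries on day 1).

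In the integrated stress response, Atf4 raises Atf3 and genes of amino acid supply. Of 12 genes of this response, 2 were higher and 1 lower on day 0, 1 and 3 on day 1, 1 and 5 on day 3, and 7 and 1 on day 6, with medians of 0.06, -0.09, -0.33 and 0.49. The count of lower genes ran from 5 to 10 on day 3 and from 1 to 2 on day 6 over the alternatives. Without the library that stood apart 2 were higher and 2 lower on day 1, and without WT replicate 1 of day 0, 1 was higher and 0 were lower on day 0. Trib3, a target of Atf4, was lower on day 3 (-1.28) and higher on day 6 (0.68). Psat1 and Asns, enzymes of serine and asparagine synthesis, were higher on day 6 (1.22 and 1.02), as was Atf4 itself (0.47), and Psat1 was also higher on days 0, 1 and 3 (0.32, 0.51 and 0.57). Beside these values, the day 6 group labelled KO was also the one with the highest muscle marker sums and with Cd68 at 10.7 CPM against 3.32 CPM in WT, and the part of either in these differences was not tested.

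**Figure D4:**
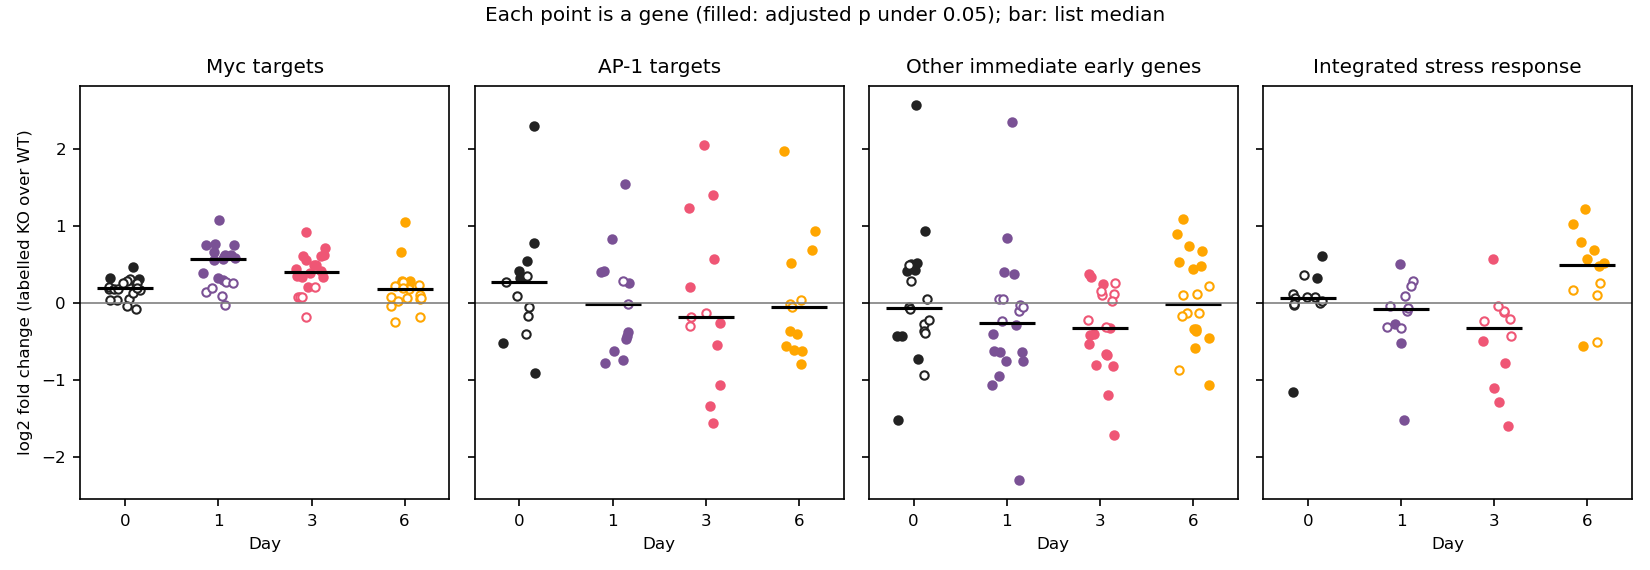
Log2 fold change between the KO-labelled libraries and WT (vertical axis) on days 0, 1, 3 and 6 for each tested gene of 4 lists, with filled points where the edgeR adjusted p was under 0.05 and a bar at the list median. Myc targets lie mostly above 0 on days 1 and 3 (medians 0.56 and 0.40), AP-1 targets spread on both sides on every day, and stress response genes have a median of -0.33 on day 3 and 0.49 on day 6.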

How the data were processed

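The 23 libraries of poly(A) RNA were grouped by genotype and day from their titles, and the labels do not say whether replicates were separate cultures, so p-values may measure technical spread alone. The authors deposited estimated counts per gene symbol, as whole numbers, and TPM of the same genes. The submitters' processing notes name Bowtie2, RSEM and the mouse build mm10, with no versions, and use of strand is not given in the sources used here. Genes that share sequence or overlap another gene may therefore hold reads of both.

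The estimated counts were tested with edgeR 4.0.16 (R 4.3.3) by the quasi-likelihood test, after filterByExpr (minimum count 10, minimum total 15) and TMM scaling, in 1 model over all 8 groups. In each of 17 comparisons p-values received the Benjamini-Hochberg adjustment across 14187 genes, with a threshold of 0.05. Standard errors derive from the F statistic, and log2 CPM used a prior count of 2. The script was tested on simulated data. Alternatives were RLE and library-size scaling, other filters, DESeq2 1.42.0, limma 3.58.1 on log2(TPM + 1) and log2(TPM + 0.1), only the groups compared, a replicate block, stricter thresholds and each library left out.

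The 10 genes and all lists were chosen with earlier results of these data known, so no list was tested as a set. Lists covered upstream factors, ERK feedback, other immediate early genes, AP-1 targets, bZIP partners, Egr co-repressors, the Myc network, Myc targets, the integrated stress response, muscle markers and markers of other cells. From each list at most 4 called genes per comparison, those with the largest change at 5 CPM or more, could be named, each then given on every day it was called between genotypes, and the most similar genes were those with the highest Pearson correlation over the 8 group means, among genes with at least 5 CPM in their highest group. Same-numbered libraries did not deviate together (mean correlation -0.094 to 0.049), so no pairing was used. Promoters came from the RefSeq table and overlaps from GENCODE M21; sequences of the other genes were not used here.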

Additional observations from a re-analysis of the deposited data

Results flagged for a closer look

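For 12 values the change since day 0 differed between the KO-labelled libraries and WT when that difference itself was tested with edgeR (threshold of 0.05 on the adjusted p). Each is the log2 change in the KO-labelled libraries minus that in WT. For Egr1 it was 0.55 at day 1 (adjusted p = 0.0155), 0.76 at day 3 (0.000223) and 0.91 at day 6 (1.88e-05), from a day 0 level that was lower in all 3 libraries labelled KO. For Fosb it was -1.42 (0.00363), -1.16 (0.00479) and -1.07 (0.00613) at the same times, from a day 0 level that was higher in all 3. For Jun it was -0.43 at day 1 (0.0437) and -0.53 at day 6 (0.00378). For Atf3 it was -0.91 at day 3 (0.000934), for Fosl2 -0.70 at day 3 (0.000607), for Fos 0.76 at day 6 (0.0465) and for Junb 0.66 at day 6 (0.0205). With the replicate block the values of Fos at day 6 (0.75, adjusted p = 0.0647) and Jun at day 1 (-0.43, adjusted p = 0.0616) did not pass, and they were lost in 8 and 7 of 11 fits that left out 1 library. Egr1 at day 1 was lost in 3 and Junb at day 6 in 4 of 11 such fits. All of these share the 2 WT libraries of day 0.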

How the results depend on the processing

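The number of the 10 genes called depended on the threshold and on which groups were fitted. With an absolute log2 fold change of at least 1, it was 0 for labelled KO against WT on all 4 days, 1, 3 and 2 for WT on days 1, 3 and 6 against day 0, 4 on days 3 and 6 in the KO-labelled libraries, 0 in all 4 later steps and 1 at each interaction. At an adjusted p under 0.01 it was 2, 2 and 2 between genotypes on days 0, 1 and 6, 1 for WT from day 1 to day 3, and 1 and 3 at the day 1 and day 6 interactions. With only the groups compared it was 9, 1 and 6 between genotypes on days 0, 1 and 3, 6 for WT from day 1 to day 3, and 1 and 7 at the day 1 and day 3 interactions, while all genes called went from 2479 to 3618, 5981 to 3607, 6127 to 7102, 2797 to 4642, 560 to 239 and 1519 to 2613 in the same order. On day 3 between genotypes it was 4 with library size alone, 6 on log2(TPM + 1) and 5 on log2(TPM + 0.1), and on day 6 it was 2 on both TPM scales. All genes called went from 6127 to 5997, 5790 and 5747 on day 3, and from 6082 to 6127 and 5957 on day 6, in the same order. The TPM scale moved the median of all genes by -0.15 on day 3 and -0.12 on day 6 between genotypes, and by 0.11 to 0.18 in 5 comparisons with day 0. Leaving out 1 library each, the count ran from 1 to 3 between genotypes on day 0, 1 to 4 on day 6, 1 to 3 for WT from day 1 to day 3, 2 to 5 for labelled KO from day 1 to day 3, and 1 to 3 and 3 to 5 at the day 1 and day 6 interactions. All genes called were not counted at the stricter thresholds or with 1 library left out. Those counts of the 10 genes are therefore not read against the background. Signs reversed for uncalled values alone. On log2(TPM + 1) and log2(TPM + 0.1) these were, between genotypes, Atf3 on day 1 (-0.0023 and -0.0022), Fos on day 3 (-0.060 and -0.068) and day 6 (-0.035 and -0.039), Myc on day 3 (-0.041 and -0.041), Fosl2 on day 6 (-0.034 and -0.034) and Egr1 on day 6 (-0.11 and -0.11). Against day 0 they were Fosb (0.051 and 0.079) and Egr1 (0.014 and 0.015) in WT on day 1, and Jun (0.053 and 0.053) and Jund (0.077 and 0.078) on day 6 labelled KO. With library size alone they were Egr1 on day 6 between genotypes (-0.048), Fosb in WT on day 1 (0.029), and Jun (0.010) and Jund (0.034) on day 6 labelled KO. With a mean count of at least 50 they were Fosb (0.0056), Jun (0.0034) and Jund (0.028) in the same comparisons. Leaving out 1 library each, uncalled values that changed sign ran, between genotypes, from -0.032 to 0.0091 for Jund on day 0, from -0.17 to 0.011 for Fos, -0.49 to 0.0035 for Jund and -0.016 to 0.16 for Atf3 on day 1, and from -0.059 to 0.18 for Fos and -0.039 to 0.054 for Egr1 on day 6. Against day 0 they ran from -0.13 to 0.11 and -0.035 to 0.21 for Fosb in WT on days 1 and 3, from -0.17 to 0.036 for Atf3 on day 3 labelled KO and from -0.097 to 0.0027 for Jund on day 6 labelled KO. Same-numbered libraries were not paired by any label. With the replicate block the number called was 2 in place of 3 at the day 1 interaction and 4 in place of 5 at the day 6 interaction, and it was the same in the other 15 comparisons. All genes called at these 2 interactions went from 560 to 441 and from 1839 to 1699. Fos and Fosb, at 1.63 to 11.2 CPM, were the genes with the fewest counts of the 10 in most groups, which limits their precision.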
